A study of Mus musculus with 18 samples.

Results

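Skeletal muscle miRNAs, or myomiRs, were followed in small RNA libraries of mouse knee cartilage. The set held 8 mature miRNAs, chosen by name: mmu-miR-1a-3p, mmu-miR-1a-1-5p, mmu-miR-1b-5p, mmu-miR-133a-5p, mmu-miR-133a-3p, mmu-miR-133b-3p, mmu-miR-206-3p and mmu-miR-499-5p, written below without the mouse prefix. All 8 were present among the 1412 mature miRNAs of the count table. The rule names them and sets no threshold on measured values. All 8 also passed the filter on low counts, together with 420 other miRNAs, so that 428 miRNAs were tested.

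The study asked how articular cartilage responds when the anterior cruciate ligament (ACL) is ruptured by mechanical load, a model of post-traumatic osteoarthritis. All mice were male, of genotype C57bl6 and, per the study's methods, 12 weeks old. Libraries came from the injured right knee at day 1 (3 libraries) or day 7 (3 libraries) after rupture, from the uninjured contralateral left knee of the same mice at day 1 (3 libraries) or day 7 (3 libraries), and from knees of naïve mice labelled day 7, which had no rupture (6 libraries). Each library was made from femoral condyle cartilage caps, cut from the bone below and pooled from several mice. Day 7 injured pools held more mice, since part of the cartilage was lost by then. The contralateral knee is therefore a control within the same animals, and the naïve knee a control in other animals. Left and right knees of the naïve mice were pooled apart, so naïve libraries can share mice. Which libraries came from the same pool is not labelled, and p-values measure only the spread between these libraries.

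Mature miRNAs are short RNAs that guide the silencing of messenger RNAs through a seed near their 5′ end. MyomiRs are made in muscle fibres and their precursors and act in the growth and differentiation of muscle. The miR-1 and miR-133 families are shared by skeletal muscle and heart, miR-206 is particular to skeletal muscle, and miR-499 accompanies slow-fibre myosin genes. Cartilage has no muscle fibres, and the samples are labelled chondrocyte.

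The sequences are shown for their seeds, and the positions for shared transcripts among the members placed. Hairpins of miR-133a, miR-1b and the Mir1a-2 copy of miR-1a were not placed, so any transcript they share is not shown. RefSeq (GRCm38.p6) gave a mature sequence for 4 of the 8 members, printed 5′ to 3′ with the seed (bases 2 to 8) in capitals.
miR-206-3p: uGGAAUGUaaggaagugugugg
miR-133b-3p: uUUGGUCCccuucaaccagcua
miR-499-5p: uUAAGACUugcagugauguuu
miR-1a-1-5p: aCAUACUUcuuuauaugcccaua
The mature miR-206-3p lies at chr1:20679055-20679076 and miR-133b-3p at chr1:20682834-20682855, both on the plus strand. In the GENCODE annotation of GRCm38 their hairpins lie 3687 bases apart in exons of a single long non-coding RNA gene, Gm28653. The mature miR-499-5p lies at chr2:155622893-155622913, plus strand, in an intron of Myh7b, which encodes a slow-type myosin heavy chain. The mature miR-1a-1-5p lies at chr2:180389057-180389079, plus strand, in a hairpin that overlaps no other annotated gene.

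Of all miRNAs in these libraries, miR-1a-3p, the guide strand of the miR-1 family in muscle, had the highest mean level. It took 13.7% of all counts on average and ranked first in 10 of the 18 libraries. Levels are given in counts per 1000000 (CPM) after TMM scaling, which adjusts each library total for its composition. Across the 18 libraries miR-1a-3p was at 141427 ± 58433 CPM (mean and SD, n = 18), from 50883 to 268001 CPM. CPM are shares of reads, and mature miRNAs have nearly equal lengths. How well each sequence enters a library was not measured, so ranks compare reads and not molecules. The second member by level was miR-1b-5p, at 18857 ± 8316 CPM and rank 12. miR-206-3p followed at 2852 ± 1141 CPM (rank 46), then miR-133a-3p at 1797 ± 1253 CPM (rank 56) and miR-133b-3p at 751 ± 665 CPM (rank 85). miR-133 is known to promote proliferation of muscle precursors, and miR-206 is linked to regeneration of fibres and of their nerve contacts. The other 3 members were low. miR-1a-1-5p, the opposite arm of a miR-1 hairpin, was at 38.0 ± 23.4 CPM, miR-499-5p at 28.9 ± 14.1 CPM, and miR-133a-5p, the opposite arm of miR-133a, at 11.3 ± 5.59 CPM. Behind miR-133a-5p stood between 7 and 57 reads a library, so its values carry the largest counting error of the set.

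Reads of some members cannot be told apart with certainty. Mature miR-133a-3p and miR-133b-3p are near-identical, and how reads that match both were counted is not stated. miR-1b is annotated on the strand opposite to Mir1a-2, so that miR-1b-5p and miR-1a-3p are antisense to each other. Whether the counting used strand is not stated, and their reads cannot be told apart without it.

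Together the 8 members held between 7.84% (95% Wilson interval 7.79 to 7.90) and 29.0% (28.9 to 29.0) of all counts in a library, intervals that cover counting error only. The lowest share was in a day 1 injured library and the highest in a day 7 contralateral library. miR-1a-3p alone made up 85.2% of the members' counts on average. The summed share was 15.8% ± 4.08 in naïve libraries (SD, n = 6), 16.6% ± 3.03 in day 1 contralateral, 16.5% ± 7.67 in day 1 injured, 20.1% ± 7.78 in day 7 contralateral and 11.3% ± 3.32 in day 7 injured libraries (n = 3 each). The ranges of all 5 groups overlapped, and the day 7 injured group had the lowest mean. With miR-1a-3p left out of both sums the group means were 2.69%, 2.75%, 2.88%, 3.75% and 1.94% in the same order.

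**Figure D1:**
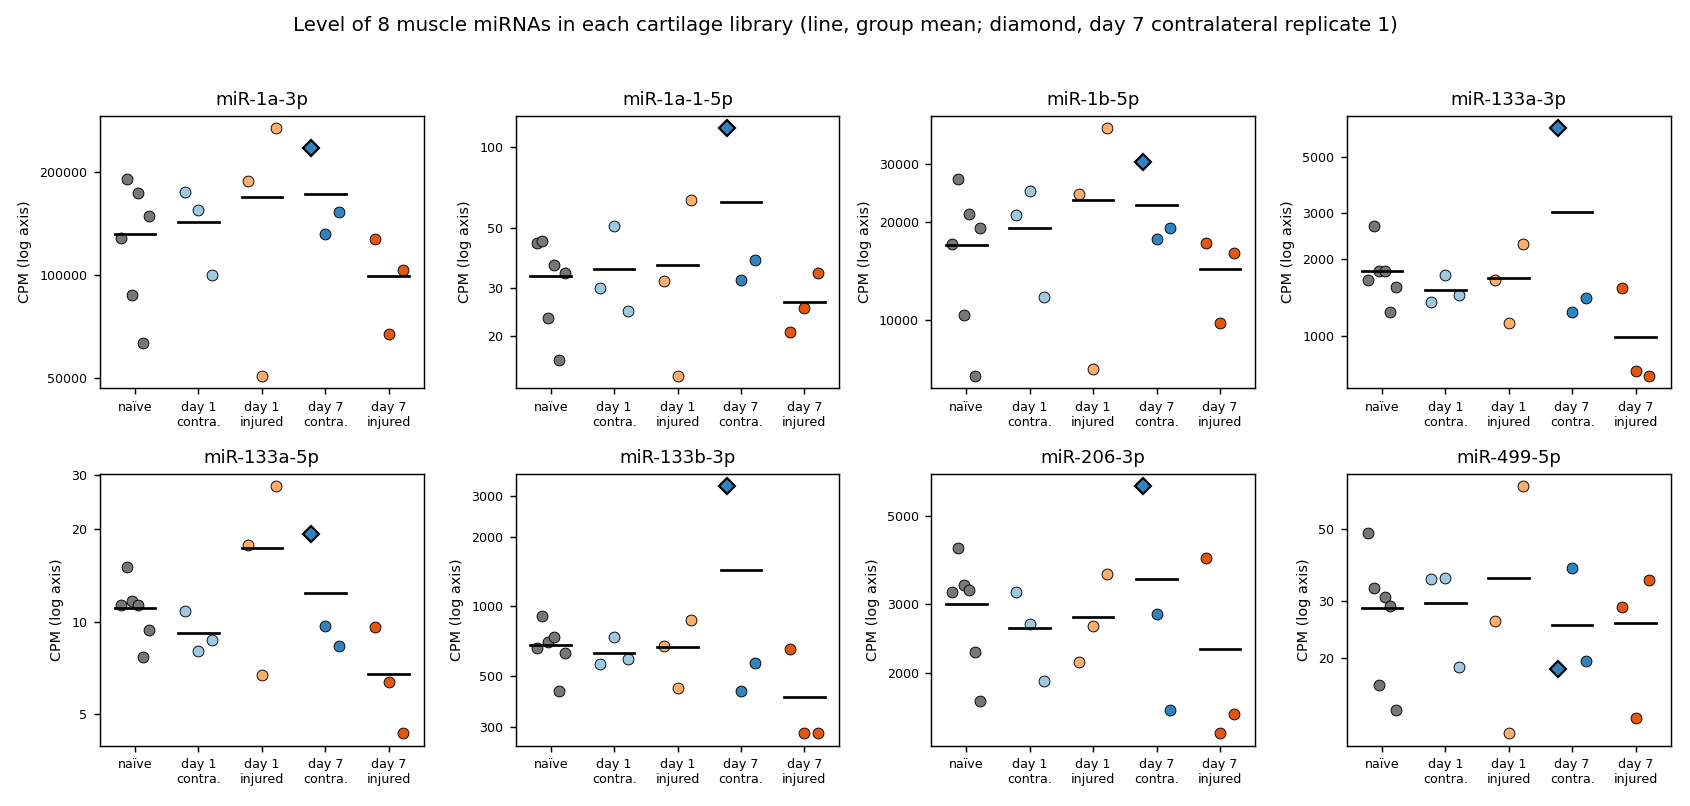
Level of each member in each library, in TMM-scaled CPM on a log axis, by group (6 naïve and 3 libraries in every other group); points are libraries, lines group means, and the diamond is replicate 1 of the day 7 contralateral group. That library was the highest of its group for 7 of the 8 members, and the day 7 injured libraries lie low for miR-133a-3p (699, 730 and 1540 CPM).

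Other products of muscle loci were also counted, which cannot settle the tissue that the reads came from. Of 10 such miRNAs, 7 were in the table and none passed the filter. miR-208b-3p, which lies within the slow myosin gene Myh7, had 0 to 7 reads a library and 48 in all. miR-208a-3p, its counterpart of the heart muscle gene Myh6, had 1 read in total over the 18 libraries, so the marker that defines heart muscle was at or near 0. The passenger arms miR-206-5p, miR-133b-5p, miR-1b-3p and miR-1a-2-5p had 1, 4, 21 and 22 reads in all, and miR-133c had 18. The cartilage markers miR-140 and miR-455, both arms of each, were all 4 tested, with summed levels of 6172 to 10499 CPM in naïve libraries. The summed cartilage markers thus stood below miR-1a-3p alone, which was at 63550 to 191106 CPM in naïve libraries.

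Libraries of one group differed widely in these miRNAs. For miR-1a-3p the 6 naïve libraries ran from 63550 to 191106 CPM with a median of 138126 CPM. The day 1 injured libraries were at 187831, 50883 and 268001 CPM, the widest range of any group. Within a group, the same library tended to be high or low for most members. Replicate 3 of the day 1 injured group was its highest library for all 8 members, and replicate 2 its lowest for 7 of 8. In the naïve group, replicate 2 was the highest for 7 of 8 and replicate 5 the lowest for 6 of 8. In the day 7 injured group, replicate 1 was the highest for 6 of 8 and the lowest for miR-1a-1-5p.

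A single library, replicate 1 of the day 7 contralateral group, stood apart. It held 6447 CPM of miR-133a-3p, against 1241 and 1404 CPM in the other libraries of its group. For miR-133b-3p it held 3322 CPM, against 432 and 568 CPM, and for miR-206-3p 5973 CPM, against 2818 and 1615 CPM. It was the lowest of its group for miR-499-5p, at 18.5 CPM against 38.1 and 19.5 CPM. Over all tested miRNAs, its root mean square deviation from its group mean was 0.753 on the log2 scale, the largest of the 18 libraries (range 0.232 to 0.753). The comparison of day 7 injured with contralateral knees is therefore given with and without it.

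Some members kept nearly fixed proportions. For every 100 reads of miR-1a-3p there were 10.6 to 16 reads of miR-1b-5p in the 18 libraries, a ratio whose within-group SD was 0.14 on the log2 scale. For every 100 reads of miR-133a-3p there were 34.0 to 51.5 reads of miR-133b-3p, with the same within-group SD of 0.14. These are the pairs whose reads cannot be told apart with certainty. Other proportions varied more. Per 100 reads of miR-1a-3p there were 0.677 to 2.75 reads of miR-133a-3p (within-group SD 0.59 on the log2 scale) and 1.06 to 5.17 reads of miR-206-3p (0.70). miR-499-5p gave 0.00792 to 0.0457 reads per 100 of miR-1a-3p (0.68). The within-group SD was 0.41 for miR-206-3p to miR-133a-3p, and for the arms of a hairpin 0.44 for miR-1a-1-5p to miR-1a-3p and 0.40 for miR-133a-5p to miR-133a-3p. A ratio within a library does not depend on how library size is scaled.

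The ratios were compared between day 7 injured libraries and each control, to ask whether the members changed in unequal measure. Per 100 miR-1a-3p reads, miR-133a-3p stood at 0.989 ± 0.277 in day 7 injured libraries (n = 3) and 1.46 ± 0.440 in naïve libraries (n = 6), and the groups overlapped. The difference in mean log2 ratio was -0.55, and an exact permutation test (two-sided) gave p = 0.143. It was the largest difference from naïve libraries among 6 ratios. Over all 12 tests, 6 ratios against both controls, every adjusted p was 0.80 and every pair of groups overlapped. The smallest unadjusted p these designs allow is 0.0119 against naïve and 0.10 against contralateral libraries, so the latter could not pass 0.05. After adjustment over 12 tests, a lone ratio at 0.0119 would not have passed either. The tests therefore cannot show that the members changed in equal measure.

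**Figure D2:**
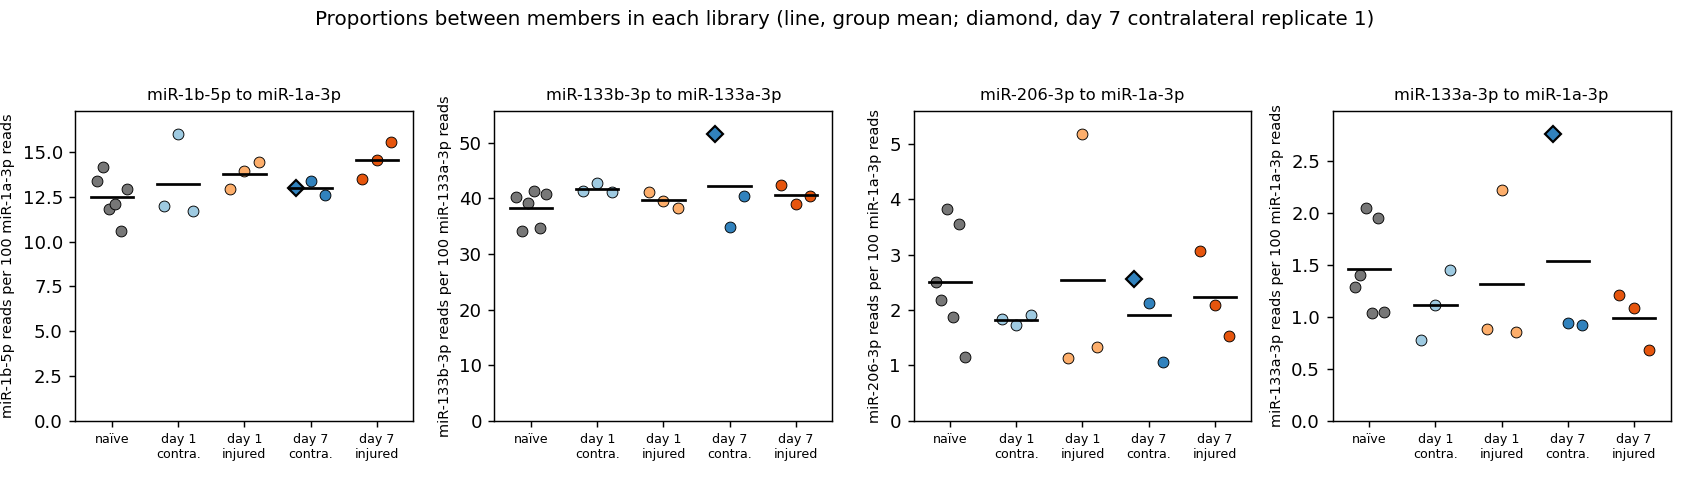
Reads of a member per 100 reads of another in each library, by group, with lines for group means and the diamond for replicate 1 of the day 7 contralateral group. miR-1b-5p per 100 miR-1a-3p reads stayed between 10.6 and 16 and miR-133b-3p per 100 miR-133a-3p reads between 34.0 and 51.5, while miR-206-3p and miR-133a-3p per 100 miR-1a-3p reads spanned 4.88-fold and 4.07-fold.

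Within-group covariation was measured on the deviations of log2 CPM from each group's mean over the 18 libraries, with permutations inside groups (100000, two-sided) and adjustment over 28 pairs. All 28 correlations were above 0. Pearson's r passed the threshold of 0.05 for 17 pairs and Spearman's rho for 18. The share of other miRNA pairs that are positive or pass was not measured, so these counts do not set the members apart. The closest pairs were miR-133a-3p with miR-133b-3p (r = 0.99, rho = 0.99) and miR-1a-3p with miR-1b-5p (r = 0.98, rho = 0.96). Both had a permutation p of 1e-05 for r, the smallest that 100000 permutations can give, and an adjusted p of 0.00014. Without the 2 libraries farthest from the median on the x axis r was 0.98 and 0.97. These are again the pairs whose reads cannot be told apart with certainty. The part of read assignment in their r and p was not tested.

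Other pairs spanned a wide range of r. miR-1a-3p with miR-133a-5p had r = 0.80 and rho = 0.74 (permutation p = 0.00354 and 0.00553, adjusted p = 0.00901 and 0.0129), and r = 0.65 without the 2 farthest libraries. miR-1a-3p with miR-133a-3p had r = 0.61 and rho = 0.72 (permutation p = 0.00089 and 0.00245, adjusted p = 0.00296 and 0.00762), and r = 0.59 without the 2 farthest libraries. miR-206-3p went with miR-133a-3p (r = 0.79, rho = 0.74, permutation p = 0.00629 and 0.00649, adjusted p = 0.0135 and 0.0140), and r was 0.63 without the 2 farthest libraries. With miR-1a-3p, miR-206-3p had r = 0.43 and rho = 0.55 (permutation p = 0.059 and 0.0271, adjusted p = 0.0841 and 0.0422), so only rho passed. miR-499-5p passed with no member: its r ran from 0.07 with miR-133b-3p to 0.58 with miR-1b-5p, and its lowest adjusted p for r was 0.11. The opposite arm miR-1a-1-5p had r = 0.80 and rho = 0.75 with miR-1a-3p (permutation p = 0.00128 and 0.00272, adjusted p = 0.00358 and 0.00762), and 0.68 without the 2 farthest libraries.

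These counts depended on the scaling. With library totals alone, without TMM, 5 of the 28 pairs passed, all of them within the miR-1 or the miR-133 members. There r was 0.96 for miR-1a-3p with miR-1b-5p and 0.99 for miR-133a-3p with miR-133b-3p, while miR-1a-3p with miR-133a-3p fell short (r = 0.48, adjusted p = 0.083). TMM factors ran from 0.712 to 1.36. The lowest factor was in the day 1 injured library with the most miR-1a-3p and the highest in the naïve library with the least, and a low factor raises CPM. Without replicate 1 of the day 7 contralateral group 13 pairs passed.

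**Figure D3:**
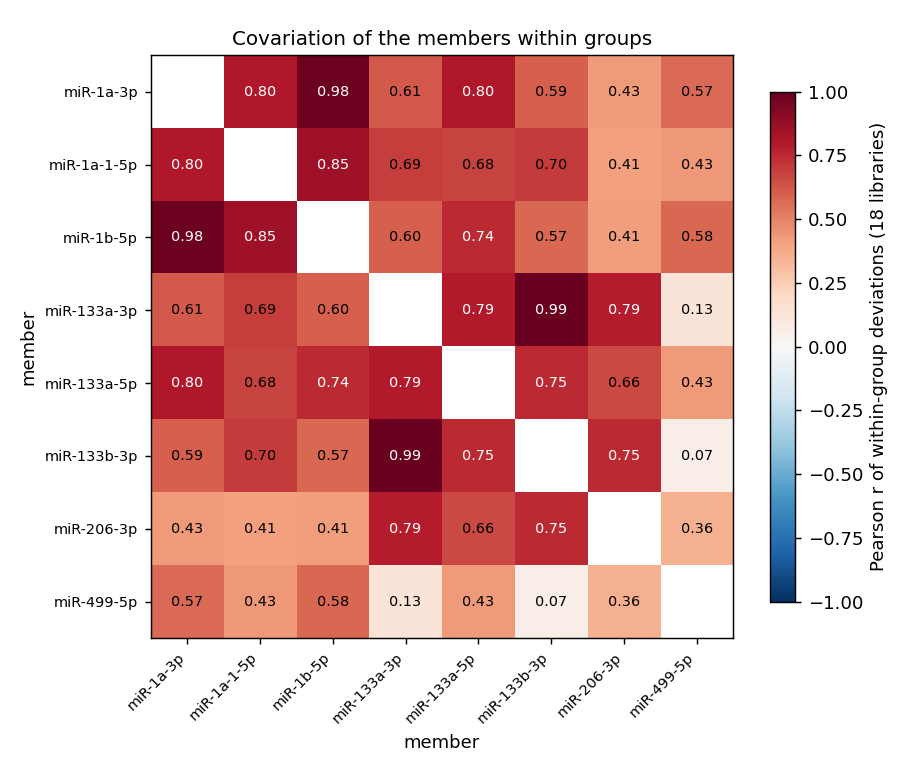
Pearson's r between members of the deviations of log2 CPM from group means over 18 libraries, on a scale from -1 to 1. The pairs miR-1a-3p with miR-1b-5p (0.98) and miR-133a-3p with miR-133b-3p (0.99) were the closest, but their reads cannot be told apart with certainty. miR-499-5p had low values with miR-133a-3p (0.13) and miR-133b-3p (0.07).

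How many other miRNAs covaried as closely differed between pairs. Of 420 tested miRNAs outside the set, 94 had a higher r with miR-1a-3p than miR-206-3p had and 51 than miR-133a-3p had. For miR-133a-5p the number was 13 and for miR-1b-5p 0. With miR-133a-3p, 6 of the 420 had a higher r than miR-206-3p had. Outside the muscle lists 315 miRNAs averaged 10 CPM or more, and those most like miR-1a-3p within groups were miR-145a-3p (r = 0.89), miR-378c (0.88), miR-196b-5p (0.88), miR-29c-5p (0.87) and miR-101b-3p (0.87). The most opposed were miR-222-3p (r = -0.91), miR-106b-3p (-0.88), miR-342-3p (-0.87), miR-27a-5p (-0.84) and miR-15b-5p (-0.84). As a description over the same 18 libraries, the summed level of endothelial markers (miR-126a, both arms) had r = 0.82 and rho = 0.73 with miR-1a-3p. The value was 0.68 for 3 erythroid, 0.66 for 4 smooth muscle and perivascular, 0.36 for 8 leukocyte and 0.11 for 4 cartilage markers. Their part in the members' covariation was not tested.

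The first comparison asked whether the members differed between day 7 injured and naïve knees. All 8 had lower fitted levels in day 7 injured libraries, with log2 fold changes from -0.95 to -0.16 and a median of -0.46, beside a median of -0.00 over all 428 miRNAs. The share of all miRNAs with a negative fold change was 50%. No member passed the adjusted threshold of 0.05 in limma, where 18.2% of all miRNAs did in either direction and 3.74% as lower. The count was also 0 in edgeR's quasi-likelihood test and in DESeq2. At an unadjusted p under 0.05 limma gave 2 members as lower (8.18% of all miRNAs), edgeR 0 and DESeq2 1. Shares of all miRNAs, here and below, come from the main limma fit, and no share of calls is given for other tools or settings. The groups overlapped for all 8 members, while 8.64% of all miRNAs had injured libraries wholly below naïve ones.

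The members nearest to the threshold belonged to miR-133a. miR-133a-3p was at 1540, 730 and 699 CPM in the day 7 injured libraries and at 1237 to 2684 CPM, median 1718, in naïve libraries. The groups overlapped through replicate 1 of the injured group alone. The log2 fold change was -0.95 ± 0.42 (SE), and limma gave an adjusted p of 0.141. miR-133a-5p was at 9.62, 6.34 and 4.32 CPM against 7.69 to 15.1 CPM, median 11.3, and again only injured replicate 1 reached the naïve range. Its log2 fold change was -0.91 ± 0.42 (limma adjusted p = 0.169). miR-133b-3p, at 654, 284 and 283 CPM against 430 to 914 CPM, median 680, had a log2 fold change of -0.84 ± 0.47 (limma adjusted p = 0.277).

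The calls for miR-133 changed with the libraries and weights in the fit. Without replicate 1 of the day 7 contralateral group, which is in neither group compared, miR-133a-3p (-0.93, adjusted p = 0.0147) and miR-133b-3p (-0.81, adjusted p = 0.0388) passed in limma. Both also passed when only the 2 groups compared were fitted and with library quality weights, which added miR-133a-5p. The other members lay closer to 0. For miR-1a-3p the injured libraries were at 127800, 67190 and 103150 CPM, all within the naïve range. Its log2 fold change was -0.39 with a 95% confidence interval from -1.26 to 0.49 (limma adjusted p = 0.582). miR-206-3p was at 3909, 1406 and 1577 CPM against 1694 to 4158 CPM, median 3236, with -0.53 ± 0.38 (limma adjusted p = 0.409). miR-499-5p was at 28.9, 13.1 and 34.9 CPM against 13.8 to 48.8 CPM, median 30.0, with -0.17 ± 0.49 (limma adjusted p = 0.840), and its direction turned without naïve replicate 1 or injured replicate 2. The cells that these reads came from were not measured. In bulk tissue, a change in the cells sampled and a change per cell cannot be told apart.

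The second comparison set day 7 injured knees against the contralateral knees of the same mice. All 8 fitted changes were negative (52.8% of all miRNAs), with a median of -0.86 beside -0.05 over all miRNAs. No member passed in limma, where 14.7% of all miRNAs did in either direction and 0.935% as lower. An unadjusted p under 0.05 was reached by 2 members (6.54% of all miRNAs, as lower). These were miR-133a-3p, at -1.26 ± 0.47 (limma adjusted p = 0.0838), and miR-133b-3p, at -1.27 ± 0.53 (limma adjusted p = 0.136). miR-133a-3p had 6447, 1241 and 1404 CPM in the contralateral libraries, so that the groups overlapped only through injured replicate 1. edgeR's quasi-likelihood test called both (-1.62 and -1.83, adjusted p = 0.0283 for each), and DESeq2 did so too (-1.65 and -1.87, adjusted p = 0.00663 and 0.00481). Without contralateral replicate 1 limma gave -0.49 (adjusted p = 0.459) and -0.35 (adjusted p = 0.646). Without contralateral replicate 2 limma called 2 members and without replicate 3 it called 1. The shares of all miRNAs called in these fits, in edgeR and in DESeq2 are not given here.

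For miR-1a-3p the contralateral libraries were at 234097, 132165 and 152383 CPM, all above the injured libraries given before. For miR-1b-5p they were at 30443, 17677 and 19193 CPM against 17250, 9794 and 16023 CPM in injured libraries, again without overlap. These were 2 of 8 members with injured libraries wholly below contralateral ones, a pattern that 9.11% of all miRNAs had. The fitted changes were -0.82 ± 0.48 for miR-1a-3p (limma adjusted p = 0.323) and -0.64 ± 0.51 for miR-1b-5p (0.512). Without contralateral replicate 1 miR-1a-3p was at -0.53 (limma adjusted p = 0.646). The contralateral and naïve comparisons share the 3 injured libraries.

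**Figure D4:**
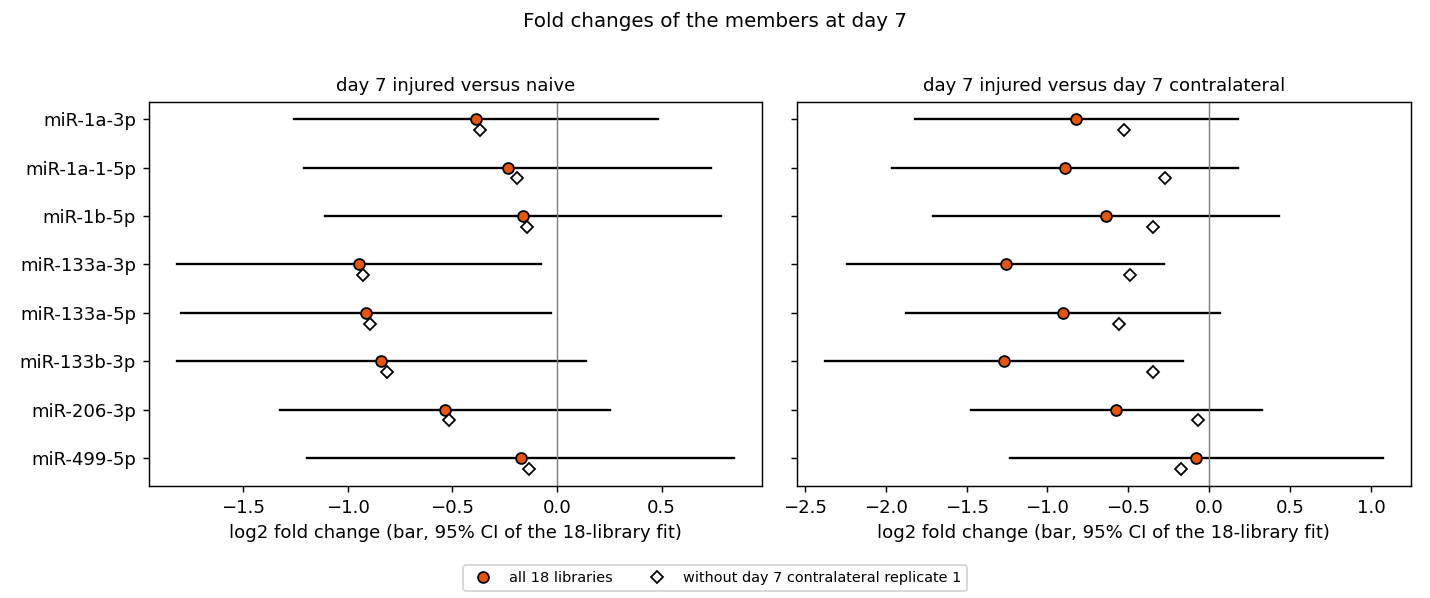
Log2 fold change of each member in day 7 injured libraries against naïve (left) and day 7 contralateral libraries (right); circles and bars are the limma fit to all 18 libraries with 95% confidence intervals, and open diamonds the fit without replicate 1 of the day 7 contralateral group. Against contralateral libraries miR-133a-3p moved from -1.26 to -0.49 without that library, while against naïve libraries it moved from -0.95 to -0.93.

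At day 1 the members were called in no comparison of the knees. Against naïve libraries, 5 members were fitted higher and 3 lower in injured libraries (42.1% of all miRNAs were lower), with a median of 0.07, the same as over all miRNAs, but with library totals only 6 of 8 were lower. Against contralateral libraries the split was again 5 to 3 (51.2% of all miRNAs were lower), with a median of 0.05, and with library totals only 6 of 8 were again lower, while with DESeq2 size factors 1 of 8 was. In both, limma called 0 members and 0% of all miRNAs, with 0 members at an unadjusted p under 0.05 beside 1.87% of all miRNAs. edgeR and DESeq2 called 0 members, with 1 each at an unadjusted p under 0.05 against contralateral libraries and 0 against naïve ones. For miR-1a-3p the difference between injured and contralateral knees was -0.01 on the log2 scale (limma), with a 95% confidence interval from 0.500-fold to 1.98-fold. The contralateral libraries were at 174696, 154890 and 100105 CPM, inside the range of the injured ones. The highest day 1 fold change was for miR-133a-5p against contralateral libraries, at 0.79 ± 0.44 (limma adjusted p = 0.997). It rests on 34, 8 and 57 reads in injured and 22, 22 and 13 reads in contralateral libraries.

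Contralateral knees were also compared with naïve knees, and with each other between days. At day 7, 6 of 8 members were fitted higher than in naïve libraries and 2 lower (51.2% of all miRNAs), with a median of 0.37 (-0.01 over all miRNAs). limma called 0 members and 0% of all miRNAs, with 0 members at an unadjusted p under 0.05 (5.37% of all miRNAs). There were 1 such member in edgeR and 2 in DESeq2, and neither of those tools made a call. At day 1, 4 of 8 were fitted lower (37.1% of all miRNAs), the median was 0.01, and limma, edgeR and DESeq2 gave 0 calls and 0 members at an unadjusted p under 0.05 (0.935% of all miRNAs in limma). From day 1 to day 7 in contralateral knees, 7 of 8 members were fitted higher and 1 lower (56.3% of all miRNAs), with a median of 0.27 and 0 calls in all 3 tools. At an unadjusted p under 0.05 this last comparison gave 0 members in limma (5.84% of all miRNAs) and 2 each in edgeR and DESeq2.

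Between day 1 and day 7, injured knees showed 8 negative fitted changes (53.5% of all miRNAs) with a median of -0.51, beside -0.07 over all miRNAs. miR-133a-5p was the only member called by limma, where 15.7% of all miRNAs passed in either direction and 3.5% as lower. At an unadjusted p under 0.05 it was again the only member (11.2% of all miRNAs, as lower). The groups overlapped for all 8 members, while 15.7% of all miRNAs lay wholly lower at day 7. It was at 17.8, 6.70 and 27.7 CPM at day 1 and 9.62, 6.34 and 4.32 CPM at day 7, with overlap. The log2 fold change was -1.42 ± 0.47 (limma adjusted p = 0.0453), from 8 to 57 reads a library at day 1 and 7 to 14 reads at day 7. edgeR's quasi-likelihood test (-1.52, adjusted p = 0.0271) and DESeq2 (-1.48, adjusted p = 0.0203) called it too. In limma the call ended with DESeq2 size factors (adjusted p = 0.0539), library totals only (0.0507), scaling without the members (0.0721), every miRNA with at least 1 count (0.127) and only the groups compared (0.0946). With 1 library left out it was called in 2 of 18 fits (limma adjusted p = 0.0046 to 0.399), and the log2 fold change ran from -1.77 without day 1 injured replicate 2 to -0.87 without day 1 injured replicate 3. miR-133a-3p, the abundant arm of the same hairpins, was at -0.85 ± 0.48 (limma adjusted p = 0.273).

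The injury effect at day 7 minus that at day 1 was negative for all 8 members (48.4% of all miRNAs, and 7 of 8 members with library totals only), from -1.69 to -0.08, but 0 members passed in limma, edgeR or DESeq2. In limma 6.78% of all miRNAs passed, and 0% as negative. At an unadjusted p under 0.05 there was 1 member in limma (3.04% of all miRNAs, as negative) and 3 each in edgeR and DESeq2. The limma value was -1.69 ± 0.64 for miR-133a-5p (adjusted p = 0.153) and -1.37 ± 0.67 for miR-133a-3p (adjusted p = 0.308). miR-133a-5p passed in 2 of 27 settings, with library quality weights (-1.59, limma adjusted p = 0.0449) and without day 1 injured replicate 2 (-2.09, limma adjusted p = 0.0240).

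Some miRNAs that are rich in muscle but also made elsewhere were lower in day 7 injured than in naïve knees. Of 6 listed, the miR-486 and miR-378a arms, 4 were called lower by limma in day 7 injured than naïve libraries, where 3.74% of all miRNAs were. With the identical 5p arms counted once, 3 of 5 measurements, all of them of miR-486, were called and the median of the 5 was -1.10. The summed level was 7860 to 11536 CPM in day 7 injured and 16472 to 23304 CPM in naïve libraries, without overlap. This sum is over all 6 and holds both identical 5p arms, so their counts enter it more than once. The 4 were both arms of each miR-486 copy, which are also abundant in red blood cells. The 5p arms had the same count in both copies in every library, at -1.22 ± 0.24 (limma adjusted p = 0.000673). The 3p arms were at -1.10 ± 0.28 (limma adjusted p = 0.00598 for miR-486a-3p and 0.00696 for miR-486b-3p). Whether the 3p arms, with nearly the same fit, are separate measurements was not tested, so 3 of 5 may overstate the number. miR-378a-3p and miR-378a-5p, which are linked to energy metabolism, were at -0.73 ± 0.33 and -0.71 ± 0.32 (limma adjusted p = 0.149 and 0.153). Against contralateral knees limma called only the miR-486 5p arms (-0.89 ± 0.27, adjusted p = 0.0297), where 0.935% of all miRNAs were called lower. Both 3p arms were there at -0.92 ± 0.32 (limma adjusted p = 0.0581 and 0.0620). miR-378a-3p and miR-378a-5p were there at -0.83 ± 0.37 and -0.78 ± 0.37 (limma adjusted p = 0.172 and 0.209).

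Of 21 markers of other cell types 1 was called between day 7 injured and naïve knees (4.76%), beside 18.2% of all miRNAs called and 3.74% called lower. In day 7 injured against naïve libraries limma called 0 of 4 cartilage, 0 of 3 erythroid, 0 of 2 endothelial and 0 of 4 smooth muscle and perivascular markers, and 1 of 8 leukocyte markers, the lymphocyte miRNA miR-150-5p (-1.54 ± 0.36, adjusted p = 0.00317). The summed cartilage markers were at 6756 to 9983 CPM in injured and 6172 to 10499 CPM in naïve libraries, and the summed erythroid markers at 1391 to 1831 CPM and 989 to 2805 CPM. Summed endothelial markers were at 57008 to 66643 CPM and 36497 to 69795 CPM, summed smooth muscle and perivascular markers at 13882 to 17486 CPM and 10169 to 21196 CPM, and summed leukocyte markers at 8236 to 9687 CPM and 6655 to 11228 CPM. All 5 sums overlapped between the groups. The part of these markers in the members' values was not tested.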

How the data were processed

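The members and lists were chosen with earlier results of these data known. Small RNA libraries were trimmed, aligned to mature miRBase sequences with bowtie and counted with SAMtools by the authors in an nf-core pipeline set to GRCm38. The submitters' processing notes name Trim Galore 0.6.6, Bowtie 1.3.0 and SAMtools 1.12. The authors deposited raw counts per mature miRNA, without normalisation. Totals were 758388 to 4088852 counts a library. Table rows and samples were joined on the library number that both names carry, although the prefix differs, and groups came from the treatment label.

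Counts were analysed in R 4.3.3. filterByExpr of edgeR 4.0.16 (minimum count 10, minimum total 15) kept 428 miRNAs. TMM, voom, lmFit and eBayes (limma 3.58.1) used all 18 libraries and a mean for each group, and p-values were adjusted by Benjamini-Hochberg over 428 miRNAs in each of 9 comparisons. The script was tested on simulated data. The study's term for libraries of the same mouse pool could not be fitted, since the labels do not give pools, and libraries were treated as independent. Log2 CPM for covariation used a prior count of 2, and ratios a pseudocount of 0.5. Ratios of miR-1b-5p to miR-1a-3p, and GC content, were added after values were seen. Permutation tests used scipy 1.17.1.

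Named miRNAs were the 8 members, other products of muscle loci, muscle-enriched miRNAs, and the 5 highest and 5 lowest in correlation with miR-1a-3p. Alternatives were other scalings and filters, edgeR's quasi-likelihood test, DESeq2 1.42.0, library quality weights, only the groups compared, and each library left out.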

Additional observations from a re-analysis of the deposited data

How the results depend on the processing

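The 9 comparisons were recomputed under 27 alternatives. In 5 of them (day 1 injured against either control, contralateral against naïve knees at either day, and contralateral knees between days) the count of members called was 0 in all 28 settings. For day 7 injured against naïve knees it was 3 with library quality weights, 2 with only the groups compared, and 0 to 2 with 1 library left out. Against contralateral knees it was 2 in edgeR and in DESeq2, and 0 to 2 with 1 library left out. From day 1 to day 7 in injured knees it was 5 with quality weights (miR-1a-3p, miR-1b-5p, miR-133a-5p, miR-133a-3p and miR-133b-3p). It was 0 with DESeq2 size factors, library totals only, totals and TMM without the members, every miRNA with at least 1 count, or only the groups compared. It was also 0 with at least 10 counts in every library, where miR-133a-5p was not tested, and 0 to 1 with 1 library left out. For the difference of the injury effects it was 1 (miR-133a-5p) with quality weights and 0 to 1 with 1 library left out, the 1 being without day 1 injured replicate 2. No share of all miRNAs called is given beside these counts, so they do not set the members apart from other miRNAs.

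The direction of some log2 fold changes that were not called turned. For day 7 injured against naïve knees, the value with 1 library left out ran from -0.34 to 0.12 for miR-1b-5p and from -0.52 to 0.32 for miR-499-5p. Against contralateral knees miR-499-5p was at 0.028 in DESeq2 and ran from -0.41 to 0.43 with 1 library left out. From day 1 to day 7 in injured knees, the range was -1.13 to 0.043 for miR-1a-3p, -0.61 to 0.41 for miR-1a-1-5p, -1.04 to 0.17 for miR-1b-5p and -0.73 to 0.48 for miR-499-5p, with the highest value of each without day 1 injured replicate 3. In the difference of the injury effects miR-499-5p was at 0.0065 with library totals only and 0.016 with at least 10 counts in every library, and ran from -0.54 to 0.66 with 1 library left out. With library totals only, the median log2 fold change of all miRNAs shifted by -0.22 to 0.12 over the 9 comparisons, by -0.12 for day 7 injured against naïve knees, where the members' median was then -0.60. From day 1 to day 7 in injured knees the calls over all miRNAs were then 49 higher and 3 lower, against 52 and 15.

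With 1 library left out, the differences in log2 ratio to miR-1a-3p against naïve libraries ran from -0.38 to 0.12 for miR-206-3p, from -0.026 to 0.43 for miR-499-5p and from -0.12 to 0.47 for miR-1a-1-5p. Against contralateral libraries they ran from -0.74 to 0.047 for miR-133a-3p, from -0.13 to 0.51 for miR-206-3p and from -0.41 to 0.18 for miR-1a-1-5p, and miR-133b-3p to miR-133a-3p from -0.17 to 0.11. The count of covarying pairs was 5 with library totals only, against 17, and 13 to 21 with 1 library left out. Without miR-1a-3p the summed share was 2.69% in naïve, 2.75% and 2.88% in day 1 contralateral and injured, and 3.75% and 1.94% in day 7 contralateral and injured libraries, by construction a smaller set. The cause of the other changes was not tested.

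No paired analysis was possible because the replicate numbers follow accession order and the labels carry no pairing. Most groups hold 3 libraries, and miR-133a-5p had 7 to 57 reads a library, so its values carry more counting error than those of the other members.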

Other observations

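The miRNAs that rose and fell with miR-1a-3p within groups differed in base composition from those that went against it. This was looked at after the correlations had been seen. RefSeq gave a mature sequence for 361 of the 420 tested miRNAs outside the set (86.0%). Across these 361, r with miR-1a-3p correlated with the GC content of the mature sequence at a Pearson r of -0.42 and a Spearman rho of -0.45. This is a correlation across miRNAs, which share the same libraries and are not independent, and no p is given. The median r with miR-1a-3p was 0.39 over 71 miRNAs of at most 40% GC and -0.22 over 95 miRNAs of at least 55% GC. With miR-133a-3p as the reference the Pearson r was -0.02, with miR-206-3p 0.18 and with miR-499-5p -0.34. The part of base composition in the members' covariation was not tested.

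The summed level of the 6 muscle-enriched miRNAs had within-group correlations of r = 0.67 (rho = 0.61) with miR-206-3p, r = 0.62 (rho = 0.55) with miR-133a-3p and r = 0.25 (rho = 0.21) with miR-1a-3p over the 18 libraries. The difference between these correlations was not tested. Summed cartilage markers were at r = -0.50 (rho = -0.36) with miR-133a-3p and r = -0.49 (rho = -0.37) with miR-206-3p. The correlations with miR-133a-3p and miR-206-3p were added after those with miR-1a-3p had been seen.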
